A study of Mus musculus with 4 samples.

Results

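Haemoglobin transcripts and the transcript of the erythroid heme enzyme were followed in spatial sections of the mouse olfactory bulb. The 5 genes are Hba-a1 and Hba-a2, which encode adult alpha globin, Hbb-bs and Hbb-bt, which encode adult beta globin, and Alas2. They were chosen by symbol, and all 5 were found among the 32285 genes of the count matrix (ENSMUSG00000069919, ENSMUSG00000069917, ENSMUSG00000052305, ENSMUSG00000073940 and ENSMUSG00000025270, in that order). The question was how many of their molecules each library held, how these lay among spots, and how they followed endothelial markers (Cldn5, Ly6c1) and meningeal markers (Dcn, Mgp).

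Haemoglobin is a tetramer of alpha and beta globin chains, each carrying heme, and red cell precursors make globin RNA in large amounts. ALAS2 is the form of 5-aminolevulinate synthase that starts heme synthesis in the erythroid lineage, whereas ALAS1 serves other tissues. Circulating mammalian red cells have no nucleus, but young ones, the reticulocytes, still carry globin RNA. Globin RNA has also been described in neurons and other non-erythroid cells, so the genes do not by themselves mark a red cell.

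Fresh-frozen bulbs were cut in coronal sections and laid on Visium capture areas, an array whose spots bind polyadenylated RNA from the overlying cells, often several per spot, and tag it with a barcode. The labels give 1 control mouse (2 capture areas, 3 sections) and 1 mutant mouse (2 capture areas, 4 sections), examined at 5 months. In the mutant, a soluble VEGFR1 transgene under tetracycline-regulated Camk2a-tTA, a driver active in forebrain neurons, blocked vascular endothelial growth factor at E13.5, and its olfactory bulb had degenerated in part. The labels give the treatment text alike for both mice, but the entry for VEGF blockade only for the mutant, and they give neither strain nor the transgenes that the control carried. The matrix numbers its libraries 1 to 4, and no label says which library came from which mouse. No comparison of control with mutant was therefore made, and the libraries, which are not replicates, are given one by one without means or tests.

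Of 4713 spots, 4616 held at least 500 unique molecular identifiers (UMIs) and were used. Libraries 1 to 4 had 1662, 715, 1296 and 943 such spots, 5223890 to 13304973 UMIs in all and a median of 7186 to 9829 UMIs per spot. The general neuronal genes Snap25, Syt1, Rbfox3 and Gad1 together reached 3334 to 4536 UMIs per 1000000 UMIs (CPM), and the dopaminergic genes Th, Trh, Ddc and Slc6a3, typical of the glomerular layer, 182 to 871 CPM. The libraries used 2768 distinct barcodes, of which 1408 occurred in more than 1 library. A shared barcode is the same array position and not the same tissue.

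The sequences upstream of the 5 genes are shown as a description and are not part of the counted transcripts. The likeness that bears on values separating the members of a pair is that of the transcripts, given below. Each line gives 250 bases up to the annotated start, 5′ to 3′ on the coding strand, from RefSeq on build GRCm38.p6. Capitals mark 4 motifs on either strand, and matches may overlap: the TATA motif (TATAA), the CCAAT box, the CACCC box (spelled CACCC) and the GATA motif (spelled GATAA).
Hba-a1: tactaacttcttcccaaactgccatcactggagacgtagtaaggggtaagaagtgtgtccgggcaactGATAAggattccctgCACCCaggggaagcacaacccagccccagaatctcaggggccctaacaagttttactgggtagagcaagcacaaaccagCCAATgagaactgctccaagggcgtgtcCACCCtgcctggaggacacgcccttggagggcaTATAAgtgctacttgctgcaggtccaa
Hba-a2: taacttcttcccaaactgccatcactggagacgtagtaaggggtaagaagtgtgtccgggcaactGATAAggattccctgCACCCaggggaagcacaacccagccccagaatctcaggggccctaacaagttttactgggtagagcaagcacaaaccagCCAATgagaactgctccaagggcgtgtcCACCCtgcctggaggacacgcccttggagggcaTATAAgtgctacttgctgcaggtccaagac
Hbb-bs: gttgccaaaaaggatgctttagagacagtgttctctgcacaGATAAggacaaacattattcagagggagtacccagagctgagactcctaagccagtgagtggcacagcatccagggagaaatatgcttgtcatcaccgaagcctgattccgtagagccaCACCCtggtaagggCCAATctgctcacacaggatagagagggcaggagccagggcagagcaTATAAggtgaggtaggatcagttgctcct
Hbb-bt: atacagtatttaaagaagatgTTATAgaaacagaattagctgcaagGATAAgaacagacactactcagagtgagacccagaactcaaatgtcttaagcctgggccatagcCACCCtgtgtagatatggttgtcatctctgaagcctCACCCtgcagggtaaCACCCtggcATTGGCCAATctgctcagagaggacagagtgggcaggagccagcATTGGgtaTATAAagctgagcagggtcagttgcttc
Alas2: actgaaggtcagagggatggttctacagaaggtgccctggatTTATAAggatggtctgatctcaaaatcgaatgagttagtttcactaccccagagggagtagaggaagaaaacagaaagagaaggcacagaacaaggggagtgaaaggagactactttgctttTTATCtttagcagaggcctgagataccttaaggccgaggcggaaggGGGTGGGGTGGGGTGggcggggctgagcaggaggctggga
Hba-a1 lies on the plus strand at chr11:32283422-32283671 and Hba-a2 on the same strand at chr11:32296242-32296491. Hbb-bs and Hbb-bt lie on the minus strand at chr7:103827929-103828178 and chr7:103813924-103814173. The Alas2 window is at chrX:150547167-150547416 on the plus strand. All 5 genes matched the RefSeq table. The alpha globin windows share a run of 247 bases, offset by 3, whereas those of Hbb-bs and Hbb-bt were 70.9% identical. The TATA motif was present in 22.8% of the 32851 windows of this length in the table, the CCAAT box in 33.8%, the CACCC box in 52.0% and the GATA motif in 22.6%. All 4 motifs occurred together in 0.968% of windows, and in the window of each of the 4 globins. The Alas2 window held all but the CCAAT box.

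The coding sequences within each pair were nearly identical. In GENCODE vM21 transcripts the longest reading frames of Hba-a1 and Hba-a2 differed at 1 of 429 bases and those of Hbb-bs and Hbb-bt at 1 of 444. Behind the reading frame the alpha globin transcripts were identical over the 74 bases that both contain, Hba-a2 being annotated 16 bases longer, while the beta globin transcripts were 70.4% identical. The counting was made at the gene level, and reads that match both copies of a pair can be lost or split. Values for one member of a pair are therefore uncertain, and the sums of a pair or of all 4 globins are firmer, though not free of lost reads.

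Globin UMIs were found in all 4 libraries, and each of the 5 genes was highest in library 3, followed by libraries 4, 1 and 2. Hbb-bs supplied 23794 UMIs (52.0% of all globin UMIs), Hba-a1 10081, Hba-a2 8793 and Hbb-bt 3089, while Alas2 had 100 in all. Together the globins made up 0.113% of the UMIs of the 4 libraries. In libraries 1 to 4 the summed level was 864 CPM (95% exact Poisson interval 848 to 880), 647 (625 to 669), 1473 (1452 to 1494) and 1303 (1280 to 1326). Libraries 3 and 4 stood above libraries 1 and 2 with intervals that did not overlap. Such a sum cannot tell fewer cells of a type from less RNA per cell, and all intervals cover counting error only.

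The alpha globin genes had levels that differed between libraries by similar factors. Hba-a1 was at 198 CPM in library 1, 145 in library 2, 322 in library 3 and 279 in library 4, which is a ratio of 2.22 between the highest and lowest library (exact conditional binomial interval 2.06 to 2.41). Hba-a2 reached 162, 126, 293 and 242 CPM, a ratio of 2.33 (2.14 to 2.53). For both genes, each neighbouring pair of libraries in the order 3, 4, 1, 2 differed beyond counting error.

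Among the beta globin genes, Hbb-bs reached 450, 340, 751 and 694 CPM, a ratio of 2.21 (2.10 to 2.33). Hbb-bt reached 54.6, 36.2, 106 and 88.1 CPM, a ratio of 2.94 (2.52 to 3.44). The order of the libraries was that of alpha globin, and again no neighbouring pair had an interval that included 1. All 4 globins thus differed by more than 2-fold between the highest and lowest library, as did 7.85% of the 9852 genes tested, whose median ratio was 1.24. Without library 2, none of the 4 passed 2-fold (ratios 1.63 to 1.95; 6.97% of genes passed), and without library 3 (6.93% of genes), Hbb-bs and Hbb-bt did (2.04 and 2.44) but Hba-a1 and Hba-a2 did not (1.93 and 1.92).

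Alas2 was counted 17, 4, 49 and 30 times, or 1.28 (0.744 to 2.05), 0.766 (0.209 to 1.96), 3.91 (2.89 to 5.17) and 3.15 CPM (2.12 to 4.49). The ratio of library 3 to library 2 was 5.11, with a wide interval of 1.87 to 19.5. Libraries 3 and 4 did not differ beyond counting error (ratio 1.24, 0.773 to 2.03), nor did libraries 1 and 2 (1.67, 0.544 to 6.82), whereas library 4 exceeded library 1 (2.46, 1.32 to 4.76).

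**Figure D1:**
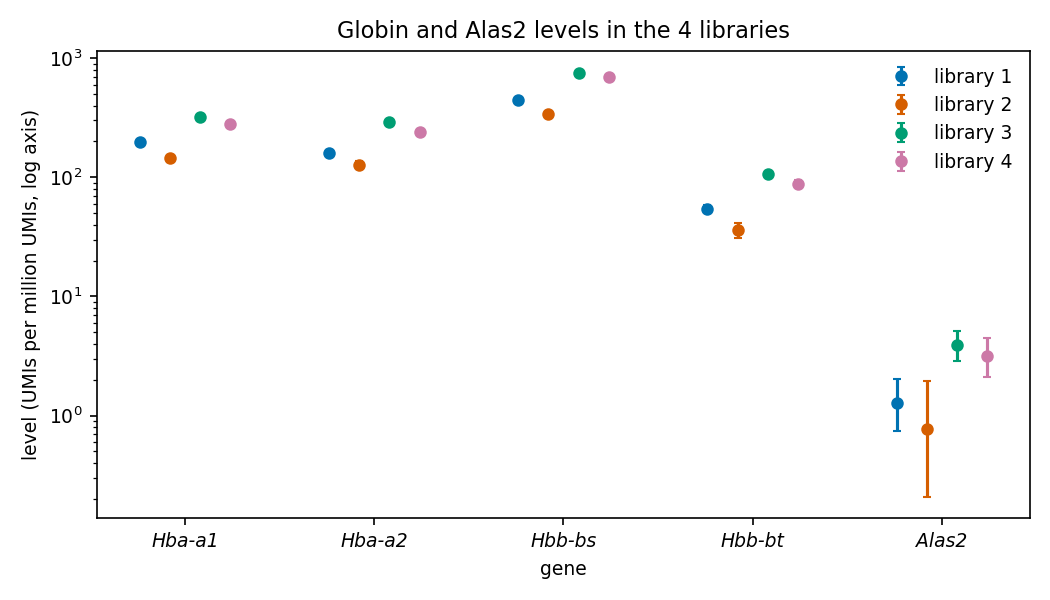
Level of each gene in each library, in CPM on a log axis; points are levels of summed spots and bars are 95% exact Poisson intervals, which cover counting error only. Each gene is highest in library 3 and lowest in library 2, and Alas2 lies between 0.766 and 3.91 CPM.

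The order of libraries 3 and 4 depended on how spots were weighted. When each spot counted equally, library 4 led with 1857 CPM against 1532 in library 3, and in spots thinned to 2000 UMIs it led with 1847 against 1519. Libraries 1 and 2 stayed below both in these settings, at 1015 and 716 CPM and at 1163 and 803 CPM. Without the 1% of spots richest in globin, libraries 3 and 4 were close, at 1113 and 1137 CPM, against 586 and 391 in libraries 1 and 2.

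The markers named by the rule did not share this order in full. Mgp, which encodes matrix Gla protein of vessel walls and meninges, was at 43.8, 71.4, 327 and 186 CPM, and Dcn, the fibroblast proteoglycan decorin, at 52.2, 65.5, 125 and 128 CPM. Both meningeal genes were thus higher in libraries 3 and 4, where the globins were also higher. Cldn5, the tight junction protein claudin 5 of brain endothelium, ranged from 63.2 to 92.2 CPM with its highest level in library 4. Ly6c1, a surface protein of brain endothelium, was highest in library 1 (127 CPM) and lowest in library 4 (75.4 CPM). From library 1 to library 2, in contrast, both meningeal genes were higher and the globins lower. The part of meningeal tissue in the difference between libraries was not tested.

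Globin UMIs were concentrated in few spots. The richest 1% of spots held 33.9% of the globin UMIs of library 1 (33.1 to 34.8, Clopper-Pearson), 40.3% of library 2 (38.6 to 42.0), 26.4% of library 3 (25.8 to 27.0) and 15.7% of library 4 (15.1 to 16.3). The same share of the synaptic gene Snap25, which is spread over most of the bulb, was 4.49% to 5.60%. Each of the 4 globins passed 10% in each library, as did 1.02% of the 2856 genes with at least 3000 UMIs. Among these genes, ordered by their lowest library, Hba-a1 ranked 10th, Hbb-bt 13th, Hbb-bs 17th and Hba-a2 19th, and the median gene had 5.43%.

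To hold 50% of the globin UMIs, 43 of 1662 spots sufficed in library 1, 15 of 715 in library 2, 67 of 1296 in library 3 and 75 of 943 in library 4, that is 2.59%, 2.10%, 5.17% and 7.95% of spots. Libraries 1 and 2, with lower totals, were the more concentrated. The dispersion index, the mean over spots of the squared deviation from the UMIs expected at the spot's depth over that expectation, was 142, 118, 96.8 and 76.2 for the globins. It was 1.75 to 2.67 for Cldn5, 1.27 to 1.83 for Ly6c1, 6.09 to 8.28 for Dcn and 2.87 to 22.5 for Mgp. The index rises with abundance at the same relative unevenness, so these rarer genes are not on one scale with the globins. For Snap25, which had more UMIs than the globins in each library, it was 2.66 to 5.99.

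**Figure D2:**
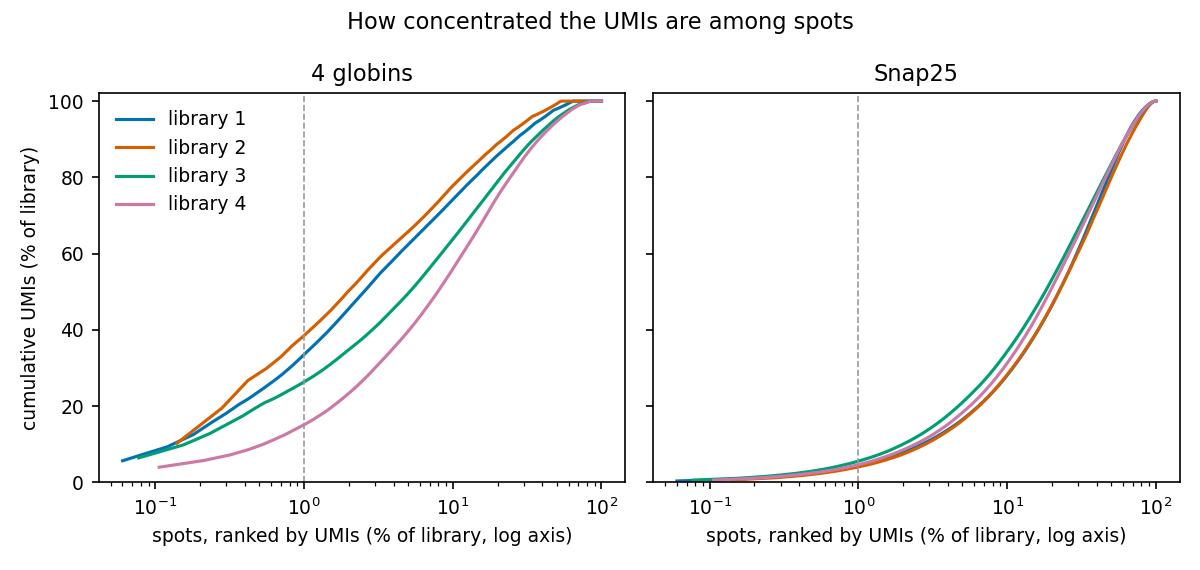
Cumulative percentage of UMIs (vertical axis) against spots ranked by their UMIs (horizontal log axis, percentage of the library's spots), for the 4 globins summed and for Snap25, with 1 line per library and a dashed line at 1% of spots. The globin lines rise earlier than those of Snap25, and library 4 is the least concentrated.

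Most spots held few globin UMIs or none. Spots with no globin UMI made up 35.8%, 46.7%, 16.7% and 15.7% of libraries 1 to 4, and spots with 1 to 4 UMIs another 41.3%, 36.9%, 37.0% and 37.6%. Spots without a globin UMI were also shallower, with a median of 3757, 4197, 5339.5 and 6116.5 UMIs. At the other end, 19, 6, 25 and 17 spots held at least 100 globin UMIs. These few spots supplied 35.7%, 36.0%, 34.3% and 21.9% of the globin UMIs of their library.

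At full depth a globin UMI was seen in 64.2%, 53.3%, 83.3% and 84.3% of spots. After each spot was thinned to 2000 UMIs, with 233, 89, 42 and 20 spots too shallow to be kept, the shares were 42.5%, 32.4%, 57.3% and 56.4%. Libraries 3 and 4 led in both cases. Because free RNA can reach neighbouring spots on an array, a spot with 1 globin UMI need not contain a cell that made it.

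The richest spot of each library held 654, 348, 1188 and 496 globin UMIs, or 76833, 68897, 50025 and 23754 CPM of the spot's own UMIs. All 4 globins were present in each of them. In library 1 this spot had 202 Hba-a1, 138 Hba-a2, 272 Hbb-bs and 42 Hbb-bt UMIs among 8512, with no Alas2. In library 3 it had 272, 207, 618 and 91 among 23748, with 3 Alas2 UMIs. Endothelial UMIs were few in these spots (Cldn5 1, 0, 7 and 3, Ly6c1 0, 1, 1 and 2), and Dcn and Mgp ranged from 0 in library 4 to 10 and 27 in library 3.

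In sums over spots, alpha and beta globin kept a nearly fixed ratio. Single spots varied more. Among the richest spots the alpha share ran from 32.4% (library 4, 176 globin UMIs) to 52.0% (library 1, 654 globin UMIs). Alpha globin supplied 41.6% of the globin UMIs of library 1 (40.7 to 42.5), 41.9% of those of library 2 (40.2 to 43.5), 41.8% of library 3 (41.1 to 42.5) and 40.0% of library 4 (39.1 to 40.9). Libraries 1 to 3 overlapped, and library 4 was lower than library 3 by more than their intervals. Over all libraries the share was 39.5% in spots with 1 to 4 globin UMIs (37.9 to 41.1) and 42.5% in spots with at least 100 (41.7 to 43.3), a small shift over a wide range of globin content. These shares are of counted UMIs, not of RNA molecules, since reads lost to the near-identical copies need not be equal in the alpha and beta pairs.

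Within the alpha pair, Hba-a1 supplied 55.01%, 53.5%, 52.3% and 53.6% of UMIs in libraries 1 to 4. This share was higher in globin-rich spots: 47.0% with 1 to 4 globin UMIs (44.4 to 49.6), 51.7% with 5 to 19 (50.1 to 53.3), 53.1% with 20 to 99 (52.0 to 54.3) and 56.4% with 100 or more (55.1 to 57.6). From the lowest to the highest class it was higher in 4 of 4 libraries, from 49.1% to 58.0%, from 49.5% to 54.4%, from 43.2% to 54.9% and from 46.8% to 58.1%. In library 2 the intervals of these classes overlapped, and its 5 to 19 class stood at 56.2%. The identity of these copies makes the split between them uncertain in every class.

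Within the beta pair, Hbb-bt supplied 10.8% (10.1 to 11.6), 9.62% (8.35 to 11.01), 12.4% (11.8 to 13.0) and 11.3% (10.6 to 12.01) of UMIs. Library 3 was above libraries 1 and 2 beyond their intervals. Over all libraries the share was 11.2%, 10.8%, 11.2% and 12.4% in the 4 classes of globin content, and only the interval of the last class (11.7 to 13.2) and that of the 5 to 19 class (9.97 to 11.6) did not overlap.

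The members also followed one another among spots. Spearman's rho of the share of spot UMIs, over the 715 to 1662 spots of a library, was 0.507 to 0.709 between Hba-a1 and Hba-a2 and 0.538 to 0.753 between Hba-a1 and Hbb-bs. Pairs with Hbb-bt, the least abundant globin, gave 0.398 to 0.604. Each pair was lowest in library 2 and highest in library 4, which also differed in globin depth. Points of one section share a library and neighbouring tissue, so these values are descriptions.

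Alas2 lay where the globins lay. Of its 100 UMIs, 74 fell in the 515 spots with at least 20 globin UMIs and 3 in the 1293 spots with none, a level of 15.7 against 0.383 CPM. Spots with an Alas2 UMI numbered 16, 4, 41 and 27 and held a median of 85, 39.5, 36 and 40 globin UMIs, against 1, 1, 3 and 4 in the other spots. Their globin level was 13965, 4617, 11687 and 6387 CPM, against 730, 625, 1104 and 1175 CPM elsewhere, while median depth was similar (9558 and 8494 UMIs over all libraries). Relative to globin, Alas2 was at 1.48 (0.861 to 2.37), 1.18 (0.323 to 3.03), 2.65 (1.96 to 3.51) and 2.41 (1.63 to 3.45) UMIs per 1000 globin UMIs, with overlapping intervals.

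Globin levels were several-fold higher in spots with meningeal marker UMIs. Spots with at least 5 Dcn and Mgp UMIs numbered 66, 43, 288 and 185 and had 3717, 3590, 4123 and 3188 globin CPM. Spots with none had 549, 324, 438 and 603 CPM. The folds were 6.77 (6.42 to 7.14), 11.1 (10.2 to 12.1), 9.42 (8.97 to 9.90) and 5.29 (5.02 to 5.57), and the level in the class with 2 to 4 UMIs lay in between in each library, at 1811, 1427, 984 and 1418 CPM. In each library each of the 4 globins was over 2-fold higher, from 5.21-fold for Hba-a1 in library 4 to 12.5-fold for Hba-a2 in library 2, as were 4.28% of the 9852 genes tested.

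These meningeal spots were a minority that held a large part of the globin. They made up 3.97%, 6.01%, 22.2% and 19.6% of spots and held 16.6%, 31.8%, 66.3% and 45.2% of globin UMIs. Depth did not separate the classes in one direction, with medians of 6715.5, 6631, 9767 and 9066 UMIs against 7265, 6099.5, 6621 and 8987 in spots without a meningeal UMI. Without the richest 5% of spots the folds were 2.22, 4.99, 4.66 and 5.58. Alas2 in these spots was counted 1, 2, 37 and 16 times against 7, 1, 2 and 3 in spots without meningeal UMIs, a fold of 25.7 in library 3 (6.64 to 220) and 9.88 in library 4 (2.83 to 52.9).

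The endothelial pair gave a smaller fold than the meningeal pair in each library. Spots with at least 5 Cldn5 and Ly6c1 UMIs numbered 146, 40, 117 and 89 and had 1067, 866, 3424 and 1876 globin CPM, against 506, 466, 933 and 1092 in spots with none. The folds were 2.11 (1.97 to 2.25), 1.86 (1.63 to 2.11), 3.67 (3.51 to 3.83) and 1.72 (1.62 to 1.82). Only in library 3 did each of the 4 globins pass 2-fold with its whole interval, and no globin passed 2-fold in each library, a mark reached by 1.67% of genes. The spots without an endothelial UMI were shallow, with a median of 3463, 3547, 6506 and 7477.5 UMIs against 10838, 9768, 11554 and 11543. Between the outer classes the level was not ordered in libraries 1 and 2, where spots with 1 endothelial UMI (1133 and 799 CPM) exceeded those with 2 to 4 (861 and 654 CPM). Without the richest 5% of spots the endothelial folds were 1.81, 1.93, 1.90 and 1.62, so that library 3 no longer stood above 2-fold. Thinning to 2000 UMIs could not check these folds for depth, since it left 1, 0, 5 and 0 spots with 5 endothelial UMIs.

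With the longer marker lists, 10 endothelial and 8 meningeal genes, the order of the pairs turned in library 2. The endothelial folds became 1.99, 6.03, 2.59 and 1.68, and that of library 2 (4.88 to 7.52) rested on 169 spots without an endothelial UMI. The meningeal folds became 4.83, 5.43, 8.92 and 59.0, and in library 2 the interval (3.73 to 8.25) overlapped that of the endothelial list. The value of library 4 had an interval of 10.6 to 2329, because the 12 spots of library 4 without any UMI of the longer meningeal list held 1 globin UMI.

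**Figure D3:**
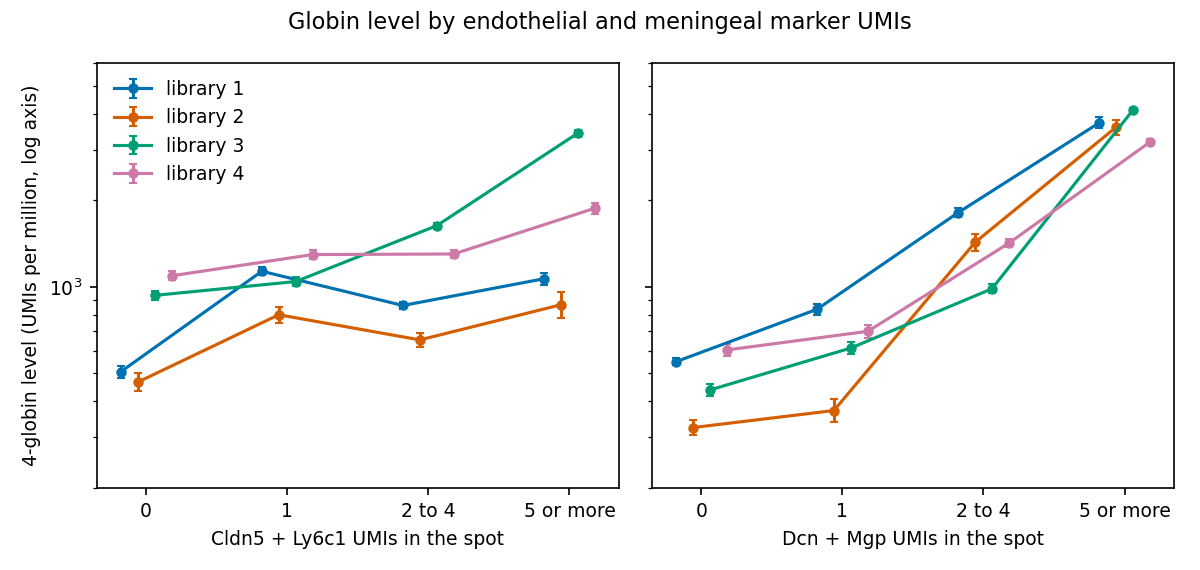
Globin level (CPM, log axis, 4 globins summed) in spots grouped by their UMIs of the endothelial pair (left) or the meningeal pair (right), with 1 line per library and 95% exact Poisson bars. The lines rise more steeply with meningeal UMIs, by 5.29-fold to 11.1-fold between the outer classes, than with endothelial UMIs.

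The 2 pairs occurred together, with a rho of 0.376 to 0.422 between them, so each was also examined among spots without the other. In spots with no endothelial UMI, those with at least 5 meningeal UMIs had globin folds of 2.64 (6 spots), 5.61 (2 spots), 5.37 (44 spots) and 10.1 (14 spots) over spots with neither. In library 2 the classes with 1 and with 2 to 4 meningeal UMIs had ratios of 0.723 (0.584 to 0.888, 39 spots) and 0.948 (0.686 to 1.28, 11 spots), so the higher level there rested on 2 spots with 29 globin UMIs. In spots with no meningeal UMI, those with at least 5 endothelial UMIs had folds of 4.27 (62 spots), 0.281 (12 spots), 0.498 (8 spots) and 8.91 (7 spots). The larger class with 2 to 4 endothelial UMIs had ratios of 1.31 (1.21 to 1.42, 284 spots) and 0.527 (0.452 to 0.612, 99 spots) in libraries 1 and 2. In libraries 3 and 4 its ratios were 0.790 (0.702 to 0.888, 94 spots) and 0.746 (0.658 to 0.845, 75 spots). These levels are sums that a few spots can set. The median spot was higher with at least 5 endothelial UMIs than with none in all 4 libraries, at 210 against 0, 107 against 0, 274 against 180 and 202 against 135 globin CPM. These classes also differed in depth, with medians of 11652, 10742, 17980.5 and 14858 UMIs against 3009, 2999, 5015 and 6613. A shallow spot more often has no globin UMI, and the part of depth in these medians was not tested. In the same spots without meningeal UMIs, rho of the globin share with the endothelial share was 0.307, 0.273, 0.145 and 0.107, and in spots without endothelial UMIs rho with the meningeal share was 0.277, 0.258, 0.419 and 0.520. In library 4 the 7 spots held 526 globin UMIs, of which 496 came from the richest spot of that library. In library 1 the second richest spot, with 421 globin UMIs, was among the 62, which held 1108 globin UMIs.

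Rank correlations told the same pairs apart less. Over spots, rho of the globin share with the endothelial share was 0.359, 0.369, 0.284 and 0.287, and with the meningeal share 0.358, 0.404, 0.544 and 0.576. The values were alike in library 1, and the meningeal value was the larger in libraries 3 and 4. Among single members rho with the meningeal pair was highest for Hbb-bs (0.338 to 0.561) and lowest for Alas2 (0.0563 to 0.192), which is sparse. Shares of the same spot have a common denominator, and the median gene had a rho with the globins of 0.0223, 0.0312, -0.0438 and -0.0720.

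Regions were formed by clustering spots without the globins, the listed genes and the mitochondrial and ribosomal protein genes, and each is called by its leading gene. None of the 12 regions had 30 spots in all 4 libraries. The Agt, Lcn11, Ly6g6e and Klhl30 regions were mostly of libraries 1 and 2, and the Mmp12, Fmod, Fst, Trbc2 and Sox11 regions mostly of libraries 3 and 4. A region of so few libraries may reflect the libraries themselves. Levels are given for regions with at least 30 spots of a library.

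The Fmod region, named for fibromodulin, a matrix proteoglycan also on the meningeal list, had 3782 globin CPM in library 3 (149 spots) and 4965 in library 4 (90 spots), 3.12-fold and 4.83-fold above the rest of the library. Every one of its spots there held a globin UMI, with a median of 23 and 23.5. The Dcn and Mgp level of this region was 2151 and 1180 CPM, against 452 and 315 CPM over all spots of libraries 3 and 4. In libraries 1 and 2 it had only 22 and 18 spots, which held 13.2% and 24.7% of the globin UMIs.

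The Umodl1 region reached 5211 CPM in library 1 (47 spots, 6.66-fold), with 3 of the 17 Alas2 UMIs of that library. The Mmp12 region, named for a macrophage elastase, had 3610 CPM in library 3 and 1964 in library 4, 3.49-fold and 1.67-fold above the rest. It held 41.6% of the globin UMIs of library 3. The Agt region, named for angiotensinogen, had 1620 and 1548 CPM in libraries 1 and 2, 2.44-fold and 3.70-fold above the rest, and held 39.2% and 48.3% of their globin UMIs.

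The lowest levels were in the Klhl30 region, at 161 and 158 CPM in libraries 1 and 2, and in the Cacna1h region, at 193, 84.3 and 338 CPM in libraries 1 to 3. The Cacna1h region was also shallow, with a median of 1824 to 2419 UMIs per spot. The Sox11 region, named for a transcription factor of immature neurons, had 711 CPM in library 3 and 307 in library 4, 0.453 and 0.220 times the rest. The region values depended on the resolution of the clustering. In library 2 the highest fold was 3.70 in the Agt region here, 13.6 in a region led by Umodl1 at resolution 0.4 and 5.99 in one led by Bpifb9b at resolution 1.2. Between regions of one library the globin level spanned a wider range than between libraries, from 161 to 5211 CPM in library 1.

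**Figure D4:**
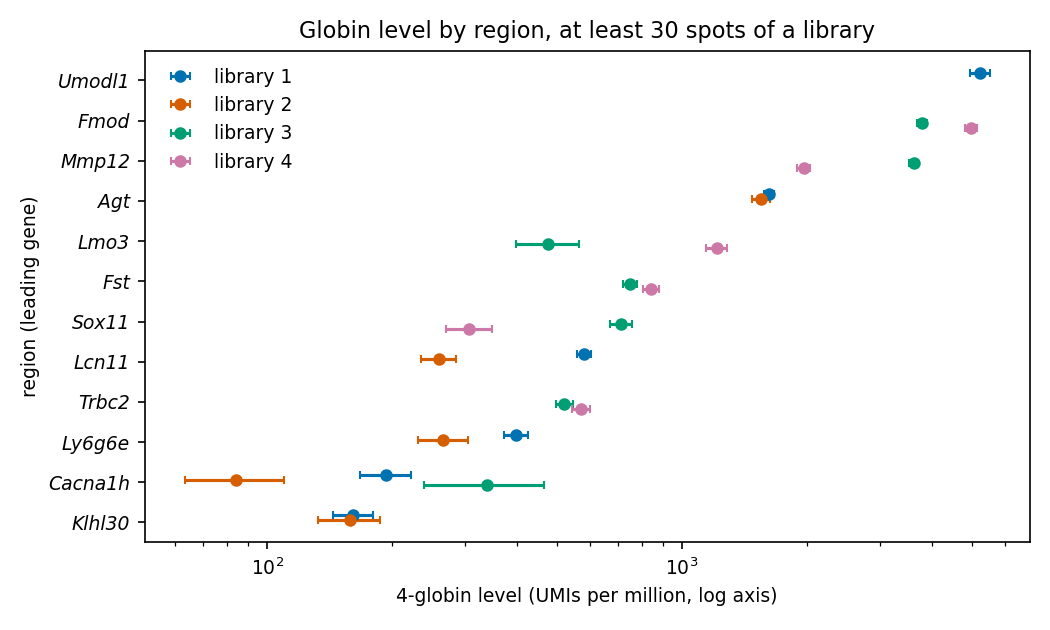
Globin level (CPM, log axis, 4 globins summed) in regions with at least 30 spots of a library, named by leading gene and ordered by their highest library; bars are 95% exact Poisson intervals. The Umodl1, Fmod and Mmp12 regions reach the highest levels, and the lowest point is the Cacna1h region of library 2 at 84.3 CPM.

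Other erythroid genes were listed with earlier results of these data known and are described by counts. Of 51 genes in 5 lists, 49 had a row and 23 were abundant enough to be tested (500 UMIs over all libraries, 3 per library). Of these 23, 2 passed 2-fold between libraries, against 7.85% of all genes, with a median ratio of 1.28 against 1.24. One of them was Zfpm1, a cofactor of GATA factors, at 8.64, 8.42, 15.2 and 20.5 CPM.

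No gene of the general heme pathway passed 2-fold between libraries, against 7.85% of the 9852 genes tested. With 8 genes, a count of 0 does not set the pathway apart from that share. All 8 genes, from Alas1 to ferrochelatase (Fech), were abundant enough to be tested. Alas1 was at 68.7, 68.5, 50.7 and 57.1 CPM, and Fech at 44.0, 45.2, 50.2 and 44.1 CPM. These enzymes are made in every cell that builds heme, and their summed share had a rho of -0.000658 to 0.0889 with the globins over spots.

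Embryonic globins were at or near 0. Hba-x, Hbb-bh1 and Hbb-bh2 had no UMI, below the level of 3 UMIs, which is 0.225, 0.574, 0.239 and 0.315 CPM in libraries 1 to 4, and Hbb-y had 8 UMIs. Neuroglobin (Ngb), an oxygen-binding globin of neurons, had 12, 8, 54 and 32 UMIs. None of its 106 UMIs lay in the globin-rich spots defined below, which held only 3.95% of non-globin UMIs. Cytoglobin (Cygb), found in fibroblasts and some neurons, was at 83.9, 81.2, 53.6 and 52.9 CPM and highest in library 1, unlike the adult globins.

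Several genes typical of red cell precursors were rare, with few or no UMIs in libraries 1 and 2. Slc4a1, the anion exchanger band 3, had 0, 0, 16 and 10 UMIs in libraries 1 to 4. Hemgn, a nuclear protein of blood cell precursors, had 0, 0, 8 and 2, and Epb42, a protein of the red cell membrane skeleton, 0, 0, 2 and 5. Other genes of the same lists did not share this pattern. Ermap had 17, 3, 14 and 14 UMIs, Klf1 7, 0, 8 and 3, and Tal1 12, 4, 2 and 14. The more abundant Ank1, Sptb and Epb41 were higher in libraries 1 and 2, Ank1 at 67.3, 64.7, 37.3 and 44.1 CPM. The 9 regulators on the erythroid list spanned a wide range. Gata1 had 3 UMIs in all, Gfi1b 1, Nfe2 7, Klf1 18, Tal1 32 and the erythropoietin receptor gene Epor 111, each too few to be tested. Zfpm1 had 545 UMIs, Lmo2 1119 and Bcl11a, a transcription factor also made in neurons, 4521.

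By a rule of the lowest rho over the 4 libraries, the genes most like the summed globins among 9852 included Apoe, Apod, Ptgds, Selenop, Dcn, Scgb1c1, Timp3, Glul and Vtn. Apoe, the main lipid carrier of the brain, had 0.543, 0.512, 0.457 and 0.492. Ptgds, the prostaglandin D synthase abundant in leptomeninges, had 0.430, 0.433, 0.667 and 0.736, the highest values in libraries 3 and 4. Dcn had 0.351 to 0.429 and Vtn, vitronectin, 0.321 to 0.403. The 99th percentile over all genes was 0.269 to 0.299 depending on the library. The least alike were Snhg11, Meg3, Ndrg4, Ncdn and Snap25, neuronal transcripts with values of -0.356 to -0.477.

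To describe what else was present where globin was abundant, the 5% of spots with the highest globin CPM in each library were set beside the rest. This definition, chosen after a first look at the data, gave 84, 36, 65 and 48 spots, which held 59.9%, 64.2%, 46.3% and 34.8% of globin UMIs. The last spot inside it had 3451.8, 2350, 6759 and 9239 globin CPM and the first outside 3451.7, 2274, 6745 and 9173. The globin-rich spots were shallower, with medians of 5778, 6156.5, 7888 and 5178.5 UMIs against 8078.5, 7385, 9165 and 10132. Levels here exclude globin UMIs from the total, and folds per library add 0.5 UMIs. Over 2-fold in each library were 1.23% of 9848 genes. The median gene had ratios of 0.915, 0.957, 0.911 and 0.920 in libraries 1 to 4. How many of all genes were higher, or lower, in each library was not counted.

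Meningeal genes were higher in globin-rich spots throughout. All 8 on the longer list (Ptgds, Col1a1, Col1a2, Igf2, Slc6a13, Slc22a6, Lum, Fmod) were over 2-fold higher in each library. Col1a1, type I collagen, was at 264 CPM in globin-rich and 44.1 CPM in other spots, 6.003-fold (5.38 to 6.68). Slc6a13, a transporter of leptomeningeal cells, was 4.72-fold higher (4.13 to 5.38), Dcn 4.66-fold (4.27 to 5.08) and Mgp 4.63-fold (4.34 to 4.94). None of these genes, Dcn and Mgp included, had fewer than 9 UMIs in the globin-rich spots of any library, and the list of 8 summed to 3196, 4456, 8104 and 5989 CPM over whole libraries.

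Vessel genes were higher by uneven amounts. Of 9 tested genes on the longer endothelial list, 8 were higher in each library, a share that was not counted over all genes. Only Cdh5, VE-cadherin, passed 2-fold in each (2.46-fold over all, 1.79 to 3.32), as did 1.23% of all genes. Without library 1, 4 of the 9 passed, and the share of all genes passing there was not counted. Vwf, von Willebrand factor of larger vessels, was 3.06-fold higher (2.36 to 3.93), though 1.46-fold in library 1. Cldn5 was 2.22-fold higher (1.95 to 2.51) and Ly6c1 1.41-fold (1.22 to 1.61). The blood-brain barrier transporter Slco1c1 was at 25.6 against 30.04 CPM and Flt1, VEGF receptor 1, at 37.4 against 30.1 CPM, each with an interval that included 1. Of the contractile genes of arteries, Acta2 was 5.34-fold (4.43 to 6.40) and Tagln 7.05-fold higher (5.65 to 8.74).

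**Figure D5:**
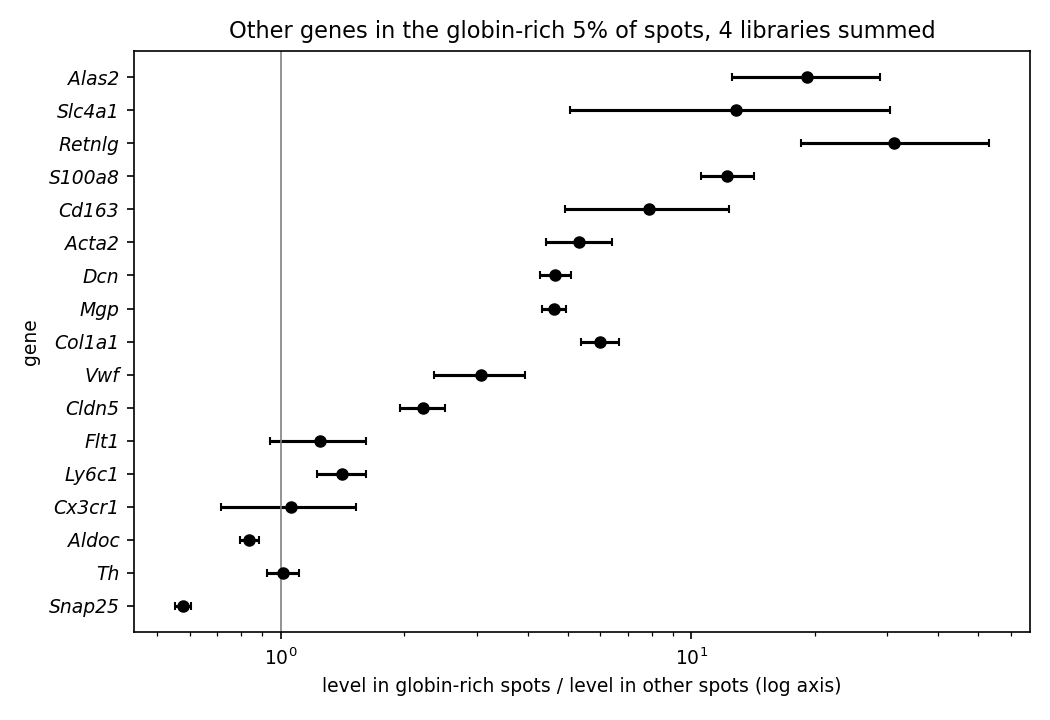
Ratio of the level in globin-rich spots to that in the other spots (log axis), 4 libraries summed, for Alas2 and genes of other lists; bars are 95% exact conditional binomial intervals and the line marks 1. Blood, meningeal and arterial genes lie to the right of the line and Snap25 to the left.

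Other blood cell genes were also high in globin-rich spots. Alas2 was at 27.4 against 1.44 CPM, 19.1-fold (12.6 to 28.8). Slc4a1 was 12.9-fold higher (5.05 to 30.5) on 26 UMIs. Among neutrophil genes, Retnlg was 31.2-fold higher (18.5 to 53.1), Ngp 20.4-fold (13.2 to 31.4) and S100a8, a calprotectin subunit, 12.2-fold (10.5 to 14.2). These UMIs came almost wholly from libraries 3 and 4, as S100a8 had 14, 2, 541 and 261 and Ngp 0, 0, 55 and 37. The neutrophil list summed to 4.28, 1.34, 101 and 70.8 CPM in libraries 1 to 4. Platelet genes were sparse and mixed. Pf4, also made by macrophages, was at 29.9 against 8.06 CPM (3.71-fold, 2.68 to 5.04). Ppbp was 10.8-fold higher (2.43 to 38.7) on 13 UMIs, and Clec1b had a ratio of 6.94 (0.704 to 36.5) on 9. Itga2b and Gp1bb had ratios of 1.46 (0.741 to 2.60) and 0.792 (0.418 to 1.37). Gp9 and Treml1, with 20 and 8 UMIs in all, had 0 in globin-rich spots, which held 3.95% of non-globin UMIs.

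Genes of haemoglobin clearance were mixed. Cd163, the haptoglobin-haemoglobin receptor of macrophages at vessels and meninges, was at 16.8 against 2.13 CPM, 7.90-fold (4.92 to 12.3). Blvrb was 1.92-fold (1.55 to 2.37), though at a ratio of 0.617 in library 2, and Hmox1, heme oxygenase 1, 1.80-fold higher (1.07 to 2.87), while Blvra had a ratio of 1.08 (0.793 to 1.45). By library, Hmox1 was at 3.61, 3.45, 10.2 and 8.50 CPM and Cd163 at 1.80, 1.53, 4.07 and 2.83 CPM. Haptoglobin (Hp) had 0, 0, 11 and 37 UMIs.

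Neuronal genes were lower where globin was high. All 4 of the general neuronal list were lower in each library, Snap25 at 1166 against 2021 CPM (0.577, 0.551 to 0.604) and Rbfox3 at 53.6 against 103 CPM (0.522, 0.417 to 0.646). The median of all genes was also below 1 in each library, at 0.915, 0.957, 0.911 and 0.920. The share of all genes lower in each library was not counted, so the count of 4 has no background. Th, tyrosine hydroxylase of periglomerular neurons, was at 329 against 325 CPM (1.01, 0.925 to 1.10), with ratios of 1.02, 1.07, 0.771 and 0.755 by library. Among microglial genes, Tmem119 was 2.07-fold (1.61 to 2.62) and C1qa 1.38-fold higher (1.22 to 1.55), each in 4 of 4 libraries. Cx3cr1 and P2ry12 had ratios of 1.06 (0.715 to 1.52) and 1.10 (0.762 to 1.53).

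Genes of the nasal mucosa, which sections of the bulb can include, moved with globin unevenly. Bpifb4 was at 848 against 111 CPM, 7.61-fold (7.15 to 8.09), and was the 1 of 4 tested mucosa genes over 2-fold in each library, from 2.02-fold in library 4 to 22.1-fold in library 3. Obp1a, an odorant-binding protein of nasal glands, was at 123 against 122 CPM, a sum set by library 1, which held 185 of its 197 UMIs in globin-rich spots. Its ratio was 0.927 there and 7.83, 5.88 and 8.40 in libraries 2 to 4, on 6, 3 and 3 UMIs. The mucosa list had 609, 33.3, 267 and 529 CPM in libraries 1 to 4, which is not the order of the globins. Without the 10% of spots richest in this list, the meningeal folds of globin were 6.52, 6.65, 5.75 and 3.81, and the endothelial folds 2.17, 0.628, 1.56 and 2.11, so that the endothelial direction turned in library 2.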

How the data were processed

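Visium libraries of mouse olfactory bulb were deposited as 1 pooled matrix of whole-number UMI counts per gene and spot, which the authors made, per the file headers, in Space Ranger 1.3.1. Per the submitters' processing notes the genome was GRCm39; the annotation, and whether depth was scaled between libraries, is not stated in the sources used here. Libraries were taken from the barcode suffix, which matches no label, so control and mutant were not compared and no p-value was computed.

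Spots under 500 UMIs (97) were set aside. Levels are summed UMIs per 1000000 (CPM), and 3 UMIs correspond to 0.225 to 0.574 CPM. Intervals are exact at 95% and cover counting error only. Genes with 500 or more UMIs overall and 3 or more per library were tested against a threshold of 2-fold. In simulated counts for the libraries it was passed by 100% of 4-fold and 0% of unchanged genes among 9852. The simulated counts varied by counting error only, so other variation between libraries is not covered. Regions came from 2000 variable genes, 30 principal components, 15 neighbours and Leiden clustering at resolution 0.8 (leidenalg 0.10.2, Python 3.11.15, scipy 1.17.1). Alternatives were other spot minimums, weightings, scalings, thinning, marker lists and resolutions, and leaving out each library.

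The members, lists and tests were chosen with earlier results of these data known. Named genes are the members, genes of the lists, the 10 genes most and 5 least like the summed globins, and the leading gene (at least 200 UMIs) of each region; a few that these rules name are not reported here. Sequences are from RefSeq (GRCm38.p6) and transcripts from GENCODE vM21.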

Additional observations from a re-analysis of the deposited data

Results flagged for a closer look

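The 97 spots under 500 UMIs lay outside every comparison and still held globin. They had 25 globin UMIs among 27613, a level of 905 CPM (586 to 1337), above the limit that a count of 0 allows. Of these UMIs, 21 came from the 4 such spots of library 4, with 15 in a single spot, while library 1 had 3 in 85 spots, library 2 had 0 in 3 and library 3 had 1 in 5. No label says whether these spots lie under tissue.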

How the results depend on the processing

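Of 170 alternative values over 33 results, 126 stayed close to the reported value, 43 moved and 1 reversed. For the 4 globins, highest over lowest library (2.28) became 2.59 with each spot weighted equally and 2.90 without the richest 1% of spots, and ranged from 1.70 (without library 2) to 2.28 with 1 library left out (2.02 without library 3). The share of globin in the richest 1% of spots of library 2 (40.3%) was 42.8% in spots thinned to 2000 UMIs and 38.4% in spots of at least 2000 UMIs. That of library 3 (26.4%) was 18.7% in thinned spots and 26.5% in spots of at least 2000 UMIs. The lowest endothelial fold of any library (1.72, library 4) was 1.62 without the richest 5% of spots (library 4). Without the 10% of spots richest in mucosa genes it was 0.628, a reversal in library 2 (from 1.86), while library 4 had 2.11. The lowest endothelial fold ranged from 1.72 to 1.86 with 1 library left out. The lowest meningeal fold of any library (5.29, library 4) was 6.98 in thinned spots (library 4) and 4.83 with the longer list (library 1, while library 4 had 59.0). Without the richest 5% of spots it was 2.22 (library 1, from 6.77), while library 4 had 5.58. Without mucosa spots it was 3.81 (library 4). The lowest meningeal fold ranged from 5.29 to 6.77 when 1 library was left out. In thinned spots the lowest rho fell to 0.159 for the endothelial and 0.232 for the meningeal pair. The highest region fold of the lowest library (3.49) was 3.26 at resolution 0.4, where that of library 2 moved from 3.70 to 13.6, the lowest alpha globin share (40.0%) was 38.7% in spots with fewer than 20 globin UMIs, and the erythroid genes past 2-fold fell from 2 to 1 at a minimum of 1000 UMIs. The cause of these shifts was not tested. Among alternatives chosen after seeing the data, spots with at least 20 globin UMIs in place of the richest 5% gave 4 mucosa genes over 2-fold in place of 1, and a Mgp fold of 7.37. The thinned endothelial fold had no value in libraries 2 and 4 and rested on 1 and 5 spots in libraries 1 and 3. The longer endothelial list moved the fold of library 2 from 1.86 to 6.03. No paired analysis was possible because the libraries carry no labels and no test was run. Alas2, with 4 to 49 UMIs per library, is limited by depth.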
